A study of Mus musculus with 12 samples.

Results

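The 9 genes described here encode 6 laminin chains (Lama3, Lama4, Lama5, Lamb1, Lamb2 and Lamc1) and the linker proteins nidogen 1 (Nid1), agrin (Agrn) and perlecan (Hspg2). They were chosen by name from the basement membrane genes of the mouse, with earlier results of these data known, and 9 of 9 were found among the 18278 genes measured. RNA-seq counts came from tumourspheres, which are clusters that grow from single cells kept off the plastic, in 4 groups of 3 libraries. All 4 groups were mouse mammary cancer cells that descend from HR1, a non-metastatic line from tumours driven by mutant PIK3CA, into which a piggyBac transposon with the CAG promoter had been brought together with a doxycycline-inducible transposase. From such cells came LM1 and LM9, each a line from a lung metastasis in a NOD/SCID mouse, and they are called parental here. LM1 Nfib KO and LM9 Nfib KO are small pools of single-cell clones of those lines, made with CRISPR-Cas9 against the gene of the transcription factor NFIB and screened by immunoblot; their libraries are called KO-labelled. Every culture was grown for 6 days at 10000 cells per mL in serum-free medium with B27, EGF and basic FGF (20 ng per mL of each factor) and then dissociated with trypsin. The methods speak of technical triplicates for tumoursphere measurements, and the sources used here do not say whether the 3 libraries of a group came from separate cultures. The p-values therefore measure the spread between these libraries, which may be technical.

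Facts about the libraries that touch every value below are these. Totals ran from 29249075 to 37162594 counts, so that 3 counts, the floor used for a gene with no or hardly any reads, were worth 0.0730 to 0.121 counts-per-million (CPM) of a library after TMM scaling. Nfib mRNA was not lower in the KO-labelled libraries: LM1 held 218 ± 22.6 CPM of it and the KO-labelled LM1 libraries 235 ± 5.67 CPM (adjusted p = 0.533 in limma-voom), and LM9 held 154 ± 48.8 CPM and the KO-labelled LM9 libraries 240.04 ± 11.2 CPM (adjusted p = 0.00260; SD, n = 3; log2 fold change 0.68, or 0.93 without LM9 replicate 1). Counts over a whole gene do not show a small edit, so this does not test the knockout itself, but each direction given below rests on the labels. LM9 replicate 1 stood apart from its group. Across genes its log2 CPM correlated with the LM1 libraries at 0.9917 to 0.9922 and with LM9 replicates 2 and 3 at 0.9639 to 0.9662, and the LM9 changes of the members are given with and without it. Other LM9 values include it unless stated. All 12 libraries share 1 fit, so the spread of LM9 replicate 1 also enters the SE and p of the LM1 changes. Both parental lines correlated with the KO-labelled libraries at 0.6885 to 0.7016. Between the KO-labelled LM1 and LM9 libraries 0% of genes differed at an adjusted p under 0.05 in limma-voom, with or without LM9 replicate 1. The changes in LM1 and in LM9 are thus taken against KO-labelled groups not told apart, and are not read as independent repeats. Markers of luminal mammary epithelium were close to absent from the KO-labelled libraries: the 5 markers summed to 737 to 787 CPM in LM1 and 786 to 1327 CPM in LM9, against 0.931 to 1.11 CPM and 0.936 to 1.06 CPM in the KO-labelled LM1 and LM9 libraries.

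Laminins are cross-shaped glycoproteins made of 1 α, 1 β and 1 γ chain that join in the endoplasmic reticulum before secretion, and a trimer is named by the numbers of its chains, so that laminin-511 holds α5, β1 and γ1. The short arms of the trimers tie them into a sheet, and the globular end of the α chain binds integrins and dystroglycan on the cell surface. Nidogen joins the γ1 chain to collagen IV, while perlecan and agrin, which carry heparan sulfate, join the sheet to other matrix proteins and to receptors. In the mammary gland this sheet separates the epithelium from the stroma, and tumour cells that leave the duct have to pass it. In CPM, the counts are scaled for library size with TMM factors; in RPKM they are also divided by the length of the gene's exons in kilobases, and only RPKM levels are compared between genes.

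A few sequences show the places in these genes that the account turns on. The first stretch is from Lamc1 and encodes the loop of the γ1 chain to which nidogen docks. It lies in exon 14 of 28 on the minus strand, and the capitals mark the codons of the nidogen-binding heptapeptide (chr1:153243361-153243381 for the capitals, mm10).
Lamc1 nidogen-docking site: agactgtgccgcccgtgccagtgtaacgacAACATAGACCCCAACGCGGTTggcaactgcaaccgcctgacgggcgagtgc
Nidogen 1 attaches here, and its mRNA had the lowest mean RPKM of the 9 in LM9 and in both KO-labelled groups.

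The promoters of Lama5, Lamb1 and Lamb2 are shown because these genes encode the α chain with the highest RPKM and the β chains that fell most and least among the members. Each runs from 250 bases before to 50 bases after the RefSeq start (GRCm38.p6), 5′ to 3′ on the gene's strand, at chr2:180225810-180226109 (minus), chr12:31265043-31265342 (plus) and chr9:108479612-108479911 (plus). Capitals mark matches to TTGGC on either strand, one arm of the site bound by the NFI family of factors, to which NFIB belongs.
Lama5: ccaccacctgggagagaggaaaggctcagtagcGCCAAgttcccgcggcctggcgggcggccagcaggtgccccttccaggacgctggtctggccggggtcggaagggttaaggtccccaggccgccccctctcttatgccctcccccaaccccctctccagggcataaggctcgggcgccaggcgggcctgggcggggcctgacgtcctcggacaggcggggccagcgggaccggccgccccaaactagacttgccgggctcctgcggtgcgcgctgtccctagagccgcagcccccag
Lamb1: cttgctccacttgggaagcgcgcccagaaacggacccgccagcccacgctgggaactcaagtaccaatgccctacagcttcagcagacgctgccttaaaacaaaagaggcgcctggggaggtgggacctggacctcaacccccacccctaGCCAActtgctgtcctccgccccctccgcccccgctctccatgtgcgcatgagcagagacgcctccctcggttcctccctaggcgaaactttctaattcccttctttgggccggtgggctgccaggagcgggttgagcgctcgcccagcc
Lamb2: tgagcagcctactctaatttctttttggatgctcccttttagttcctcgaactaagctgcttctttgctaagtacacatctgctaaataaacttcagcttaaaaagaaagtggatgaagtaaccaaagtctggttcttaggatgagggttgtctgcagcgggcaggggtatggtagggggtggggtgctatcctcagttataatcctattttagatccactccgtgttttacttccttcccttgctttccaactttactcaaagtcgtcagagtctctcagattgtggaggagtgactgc
Of the 9 members, 6 had a promoter in the RefSeq table (these and Nid1, Agrn and Hspg2), while Lama3, Lama4 and Lamc1 had no entry. TTGGC was found once in Lama5, in Lamb1 and in Hspg2, and in 46.7% of all 32851 promoters in the table. The full NFI site, in which TTGGC is followed after 5 bases of any kind by its reverse complement GCCAA, was in none of the members' promoters and in 0.0365% of all. Likewise TGANTCA, the AP-1 site (7.81% of all promoters), and ACGTG, the core of the hypoxia response element (19.6%), had no match in the members' windows. These counts describe letters in a window and say nothing of binding.

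All 9 genes differed between the parental libraries and the KO-labelled ones in both lines, and 8 of the 9 were lower. In LM1 the log2 fold changes were -6.33 for Lama4, -5.42 for Lamb1, -5.26 for Lama5 and -4.69 for Agrn, and between -2.35 and -1.21 for Lamc1, Lamb2, Nid1 and Hspg2. Lama3 was the only member that rose, by 4.93. Changes of this kind were common: at an adjusted p under 0.05 in limma-voom, 81.2% of the 18176 genes tested were called in LM1 (43.1% higher and 38.1% lower) and 82.3% in LM9 (44.3% higher and 38% lower). With the added condition of a change of more than 1 on the log2 scale, 29.8% were called higher and 25.2% lower in LM1, and 31.3% and 26.1% in LM9, and all 9 members met it in both lines. The median change of the members was -2.35 in LM1 and -2.48 in LM9, beside 0.08 and 0.13 over all genes tested. Scaling by library totals alone moved the median of all genes to 0.31 and 0.49, and no member changed direction under it, although Hspg2 in LM1 came to -0.99, short of that size. In bulk libraries, fewer cells of a type and less RNA per cell cannot be told apart.

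**Figure D1:**
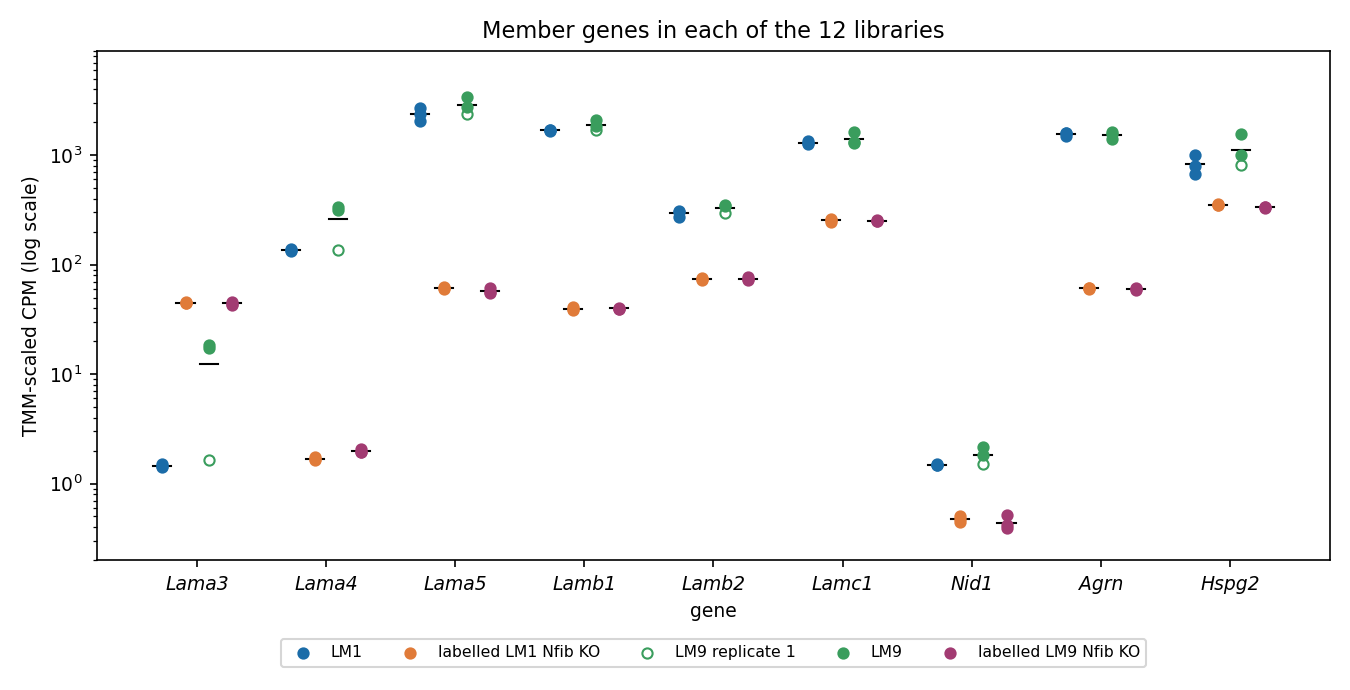
Level of each member (TMM-scaled CPM, log axis) in each of the 12 libraries, with 1 point per library, a black line at the group mean of 3 and LM9 replicate 1 drawn open. Lama3 is the only member in which the KO-labelled libraries (43.0 to 46.0 CPM) lie above the parental ones, and in the other 8 genes they lie below every parental library. How many of all genes separate in this way was not counted.

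The α chain decides which receptor a laminin meets, and the α chains changed in opposite directions. Lama5 (ENSMUSG00000015647, chr2:180176373-180225859, minus strand) encodes α5, the main α chain of adult epithelial basement membranes. It was at 2356, 2045 and 2678 CPM in LM1 and at 61.1, 60.0 and 62.4 CPM in the KO-labelled LM1 libraries. In LM9 it was at 2381, 2746 and 3421 CPM, against 56.7, 55.3 and 60.6 CPM in the KO-labelled LM9 libraries. The lowest parental library was therefore far above the highest one labelled knockout in both lines. Lama5 changed by -5.26 on the log2 scale (SE 0.13, adjusted p = 2.23e-11 in limma-voom) in LM1 and -5.62 (SE 0.13, adjusted p = 1.64e-11) in LM9.

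Lama4 (ENSMUSG00000019846, chr10:38965515-39110188, plus strand) encodes α4, the chain of endothelial and mesenchymal laminins, whose short arm is truncated. It was at 134, 140 and 135 CPM in LM1 and at 1.66, 1.75 and 1.64 CPM in the KO-labelled LM1 libraries. The LM9 libraries were at 135, 314 and 339 CPM, and the KO-labelled LM9 libraries at 2.07, 1.92 and 1.92 CPM. LM9 replicate 1 sat at the LM1 level, and replicates 2 and 3 were above every LM1 library. Lama4 had the largest fall of the 9 genes, with a log2 fold change of -6.33 (SE 0.52, adjusted p = 4.14e-07) in LM1 and -6.94 (SE 0.50, adjusted p = 1.14e-07) in LM9, or -7.36 without LM9 replicate 1. Without that library the change in LM1 was -6.33 with an SE of 0.12. While Lama4 fell, 2 of the 3 endothelial markers measured rose in each line, and their sum went from 0.867 to 0.957 CPM in LM1 to 90.3 to 92.5 CPM in the KO-labelled LM1 libraries, and from 0.540 to 2.64 CPM to 85.6 to 89.7 CPM in LM9. Cdh5 was at or under 3 counts in every parental library, and Pecam1, which also defines endothelium, stayed under 1 CPM in every group on average. LM9 without replicate 1 averaged 1.24 CPM of Pecam1. The part of these markers in the fall of Lama4 was not tested.

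Lama3 (ENSMUSG00000024421, chr18:12333819-12583013, plus strand) encodes α3, the chain that ties epithelium to its basement membrane at hemidesmosomes. Its counts were 43, 47 and 39 in LM1 and 1778, 1714 and 1721 in the KO-labelled LM1 libraries, or 1.52, 1.44 and 1.41 CPM against 44.8, 44.8 and 45.5 CPM. In LM9 the counts were 49, 430 and 467 (1.65, 17.3 and 18.4 CPM), and the KO-labelled LM9 libraries were at 46.0, 44.1 and 43.0 CPM. The groups did not overlap in either line, but LM9 replicate 1 again matched LM1 while replicates 2 and 3 lay between LM1 and the KO-labelled libraries. The rise was 4.93 (SE 0.90, adjusted p = 0.000323) in LM1 and 2.53 (SE 0.58, adjusted p = 0.00178) in LM9 on the log2 scale, and 1.31 (SE 0.06, adjusted p = 5.88e-13) in LM9 without replicate 1. Without that library the rise in LM1 was 4.94 with an SE of 0.13 (adjusted p = 3.00e-16 in limma-voom). A pair of other hemidesmosome genes, picked after their values were seen, went opposite ways. Itgb4, the integrin chain that holds hemidesmosomes, averaged 45.9 ± 1.59 CPM in LM1 but 0.749 ± 0.127 CPM in the KO-labelled LM1 libraries, while Col17a1, a collagen of the same structure, rose with Lama3, by 4.32 in LM1 and 4.19 in LM9 on the log2 scale. It had 1 to 3 counts in LM1 and 1.59 ± 0.175 CPM in the KO-labelled LM1 libraries, a ratio of 23.4 (95% exact counting interval 10.6 to 64.7). The exons of Lama3 overlap those of the antisense gene Gm29200 over 197 bp, or 1.83% of their length, and whether the counting used strand is not given in the sources used here.

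Per length, the makeup of the α class shifted between the groups. In LM1, Lama5 made up 94.7% of the α chain RPKM, Lama4 5.23% and Lama3 0.0628%. In the KO-labelled LM1 libraries the shares were 55.3%, 1.44% and 43.1%. LM9 held 91.8%, 7.76% and 0.396% (90.3%, 9.09% and 0.559% without replicate 1), and the KO-labelled LM9 libraries 54.0%, 1.75% and 44.1%. Lama3 thus reached a level near that of Lama5, 4.19 against 5.37 RPKM in the KO-labelled LM1 libraries and 4.13 against 5.05 RPKM in the KO-labelled LM9 libraries, after a rise of its own and a fall of Lama5. Lama3 has 2 coding transcripts, and its exon length of 10745 bp is close to the longest of them (10548 bp). Reads from the shorter one would make this level an underestimate, and which was in use was not tested. Lama2, the muscle α chain, held 1 to 4 counts per parental library and 6 to 17 in the KO-labelled ones, and Lama1 was not analysed here. Exons of Lama2 overlap the antisense gene Gm48084 over 3.86% of their length, so its few reads are uncertain.

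The β chains pair with γ chains through a coiled coil, and both β members fell by unequal amounts. Lamb1 (ENSMUSG00000002900, chr12:31265234-31329644, plus strand), the widespread β1 chain, was at 1692, 1679 and 1693 CPM in LM1 and at 38.2, 39.6 and 40.8 CPM in the KO-labelled LM1 libraries. LM9 was at 1702, 1843 and 2104 CPM, and the KO-labelled LM9 libraries at 39.6, 39.4 and 40.5 CPM. With log2 fold changes of -5.42 in LM1 and -5.56 in LM9 (SE 0.07 in each, adjusted p = 1.36e-12 and 1.01e-12), it had the largest fall of the β chains. The 3 libraries of LM1 and the 6 labelled knockout differed little among themselves.

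Lamb2 (ENSMUSG00000052911, chr9:108479736-108490530, plus strand) encodes β2, a chain of synaptic, kidney and vascular basement membranes. It was at 310.6, 273 and 305 CPM in LM1 and at 75.0, 73.1 and 73.7 CPM in the KO-labelled LM1 libraries, a log2 fold change of -2.00 (SE 0.07, adjusted p = 4.34e-10). LM9 was at 298, 341 and 350 CPM against 73.9, 71.7 and 76.7 CPM, a log2 fold change of -2.15 (SE 0.07, adjusted p = 2.47e-10). All parental libraries lay above all the KO-labelled ones.

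Because Lamb1 fell more than Lamb2, the order of the β chains per length was turned around. Lamb1 was at 170 RPKM and Lamb2 at 48.7 RPKM in LM1, against 3.99 and 12.2 RPKM in the KO-labelled LM1 libraries. LM9 had 190 and 54.2 RPKM, and the KO-labelled LM9 libraries 4.02 and 12.2 RPKM. As shares of the β class, Lamb1 made up 65.9% in LM1 and 22.1% in the KO-labelled LM1 libraries, and Lamb2 18.8% and 67.3%. The corresponding shares in LM9 and in the KO-labelled LM9 libraries were 60.8% and 22.3% for Lamb1 and 17.4% and 67.6% for Lamb2, and LM9 without replicate 1 held 58.2% and 16.7%. With the length of the longest coding transcript in place of all exons, a choice made after the data were seen, Lamb2 still led in the KO-labelled libraries, with 58.2% and 58.5% against 30.3% and 30.6% for Lamb1. Lamb3, the β3 chain of epithelium, fell from 261 ± 15.2 to 12.7 ± 0.651 CPM in LM1 and from 464 ± 177 to 11.98 ± 0.801 CPM in LM9 (log2 fold change -4.36 and -5.19, adjusted p = 5.43e-08 and 1.28e-08, or -5.56 in LM9 without replicate 1).

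The γ1 chain is shared by most laminins, and its mRNA fell less than that of Lama5 and Lamb1 but more than that of Lamb2. Lamc1 (ENSMUSG00000026478, chr1:153218922-153332786, minus strand) was at 1281, 1257 and 1340 CPM in LM1 and at 253, 247 and 259 CPM in the KO-labelled LM1 libraries. In LM9 it was at 1293, 1311 and 1623 CPM, and in the KO-labelled LM9 libraries at 254, 250 and 248 CPM. Again no parental library came near one labelled knockout. The log2 fold changes were -2.35 (SE 0.08, adjusted p = 2.19e-10) and -2.48 (SE 0.08, adjusted p = 1.45e-10).

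Lamc3, the γ3 chain, had 0 to 3 counts in every parental library, at or under the floor. It was at 2.19 ± 0.144 CPM in the KO-labelled LM1 libraries, a ratio of 64.4 over summed counts (95% exact counting interval 21.8 to 314), and at 2.03 ± 0.0762 CPM in the KO-labelled LM9 libraries, a ratio of 54.1 (18.3 to 264). Of the exon length of Lamc3, 6.27% is shared with the antisense gene Gm13441.

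**Figure D2:**
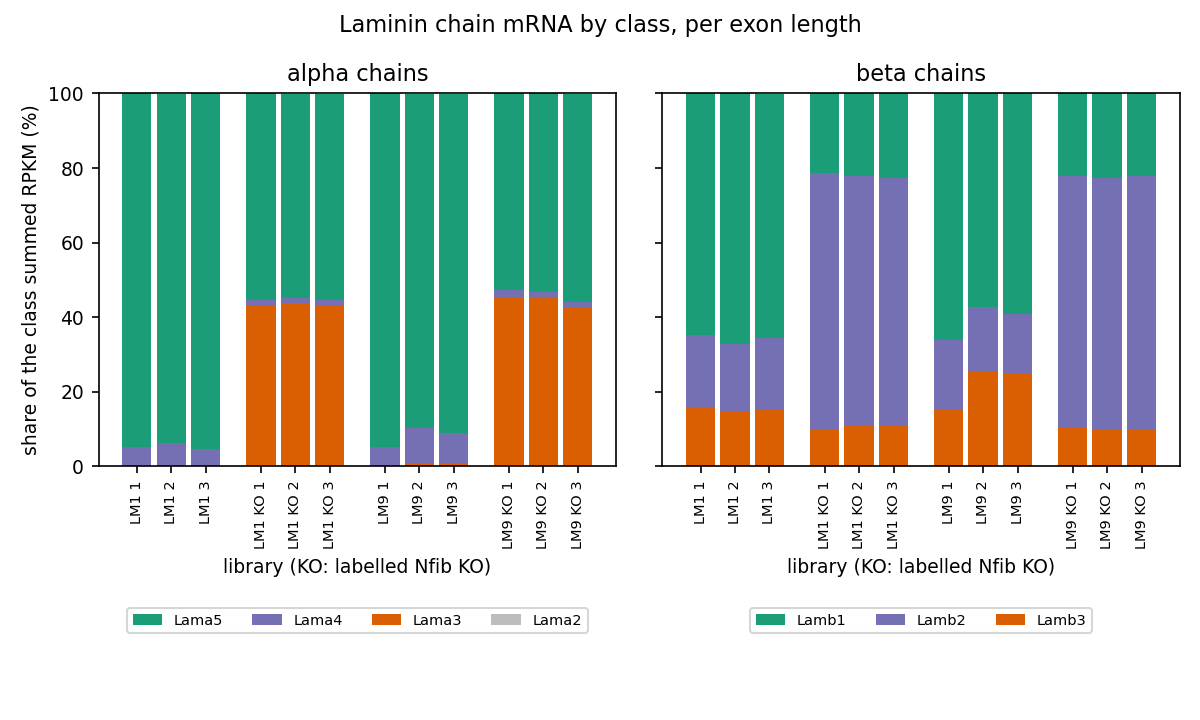
Share (%) of each laminin chain in the summed RPKM of its class in each of the 12 libraries, with α and β chains in separate panels and exon length as the divisor. Lama3 takes 43.1% and 44.1% of the α class and Lamb2 67.3% and 67.6% of the β class on average in the KO-labelled LM1 and LM9 libraries.

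Set against Lamc1, the mRNA of the α and β classes was much lower in the KO-labelled libraries. LM1 held 219 RPKM of α chain mRNA, 258 of β and 156 of Lamc1, and the KO-labelled LM1 libraries held 9.72, 18.1 and 30.6. In LM9 the values were 273, 314 and 170 RPKM, against 9.36, 18.0 and 30.3 in the KO-labelled LM9 libraries. Lamc1 was the smallest of the 3 in both parental lines and the largest in both groups labelled knockout. The ratio of Lamc1 to the α sum was 0.721 ± 0.0693 in LM1 and 3.15 ± 0.0302 in the KO-labelled LM1 libraries, and 0.631 ± 0.0675 in LM9 and 3.24 ± 0.0804 in the KO-labelled LM9 libraries (SD, n = 3). That of Lamc1 to the β sum went from 0.605 ± 0.0179 to 1.70 ± 0.0320 and from 0.546 ± 0.0567 to 1.68 ± 0.0625. Without LM9 replicate 1, both ratios in LM9 were 0.592 and 0.518. With 3 libraries a side the exact permutation test cannot go below 0.1, and these ratios are given as a description.

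Which trimers each group had the mRNA for was read off by asking, for 13 combinations of chains, whether all 3 chains were at 1 CPM or more in every library. In LM1 and in LM9 this held for 6: laminin-311, laminin-321, laminin-411, laminin-421, laminin-511 and laminin-521. In each group labelled knockout it held for 8, the same 6 plus laminin-423 and laminin-523, which need Lamc3. A stricter minimum of 5 CPM left 4 in each of the 4 groups, but not the same ones: laminin-411, laminin-421, laminin-511 and laminin-521 in LM1 and LM9, where Lama3 did not reach it, and laminin-311, laminin-321, laminin-511 and laminin-521 in the KO-labelled groups, where Lama4 and Lamc3 did not. In LM9 only replicate 1 kept laminin-311 and laminin-321 out, and without it, a check added after the data were seen, 6 were left. Asking only for more than 3 counts gave the same 6 in LM1 and in LM9 and 11 in each group labelled knockout, where laminin-211, laminin-221 and laminin-213 joined through the few counts of Lama2. In every group, then, the list of possible trimers depends on chains close to the limit, and the level of the lowest chain of each trimer says more than the list. mRNA does not show which trimers were assembled or secreted.

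In the parental lines the trimers with α5 had the highest level of the lowest chain. Laminin-511 had Lamc1 as its lowest chain, at 156 ± 5.15 RPKM in LM1 and 170 ± 22.4 RPKM in LM9. Laminin-521 was limited by Lamb2, at 48.7 ± 3.33 and 54.2 ± 4.55 RPKM. In contrast, laminin-311 and laminin-321 were limited by Lama3, at 0.136 ± 0.00552 RPKM in LM1 and 1.16 ± 0.872 RPKM in LM9, with LM9 replicate 1 at the LM1 level and a mean of 1.66 RPKM without it.

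In the KO-labelled libraries laminin-311, laminin-321, laminin-511 and laminin-521 came close to each other. Laminin-511 was limited by Lamb1 at 3.99 ± 0.132 RPKM in LM1 Nfib KO and 4.02 ± 0.0614 RPKM in LM9 Nfib KO, and laminin-521 by Lama5 at 5.37 ± 0.107 and 5.05 ± 0.240 RPKM. Laminin-311 and laminin-321 had a lowest chain at 3.99 ± 0.132 (Lamb1) and 4.19 ± 0.0374 RPKM (Lama3) in LM1 Nfib KO, and at 4.02 ± 0.0614 and 4.13 ± 0.139 RPKM in LM9 Nfib KO. Laminin-411 and laminin-421 fell to the level of Lama4, 0.139 ± 0.00493 and 0.163 ± 0.00726 RPKM. Laminin-523, which also holds α5, was limited by Lamc3 at 0.359 ± 0.0237 and 0.333 ± 0.0125 RPKM. Measured with the longest coding transcript, the lowest chain of laminin-511 was Lama5 and that of laminin-311 was Lama3, so the order between these chains is not settled at these levels.

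**Figure D3:**
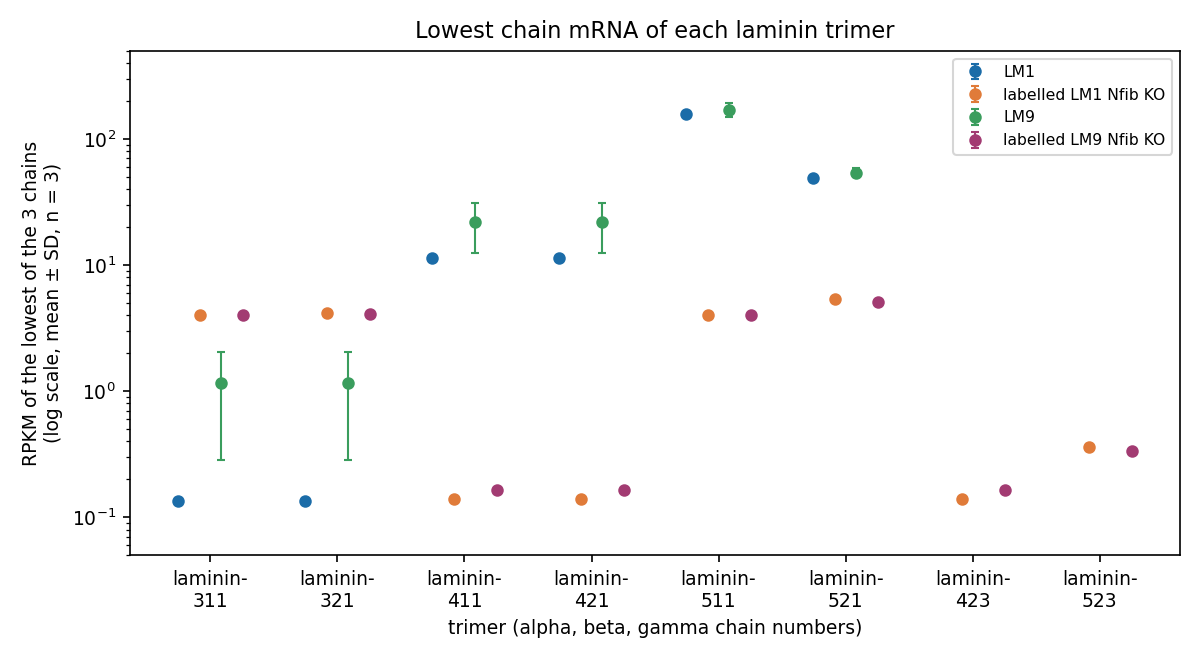
Level of the lowest of the 3 chain mRNAs of each laminin trimer (RPKM, log axis), as mean ± SD of 3 libraries per group, for the groups in which all 3 chains were at 1 CPM or more in every library. Laminin-511 drops from 156 and 170 RPKM in LM1 and LM9 to 3.99 and 4.02 RPKM in the KO-labelled libraries, whereas laminin-321 rises from 0.136 and 1.16 RPKM to 4.19 and 4.13 RPKM.

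The linkers fell with the chains, by very different amounts. Agrin is a heparan sulfate proteoglycan that binds the laminin coiled coil and dystroglycan. Agrn (ENSMUSG00000041936, chr4:156165290-156197488, minus strand) was at 1605, 1494 and 1609 CPM in LM1 and at 61.6, 59.9 and 61.1 CPM in the KO-labelled LM1 libraries. The LM9 libraries were at 1565, 1415 and 1612 CPM, and the KO-labelled LM9 libraries at 59.9, 58.9 and 61.4 CPM. LM9 replicate 1 was not apart from its group for this gene. Agrn changed by -4.69 (SE 0.06, adjusted p = 1.19e-12) in LM1 and -4.67 (SE 0.06, adjusted p = 1.01e-12) in LM9 on the log2 scale. At 169 RPKM in LM1, it was on the scale of Lamb1 and Lamc1.

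Perlecan is the large heparan sulfate proteoglycan that binds nidogen and holds growth factors. Hspg2 (ENSMUSG00000028763, chr4:137468769-137570630, plus strand) was at 799, 673 and 1004 CPM in LM1, at 351, 348 and 356 CPM in the KO-labelled LM1 libraries, at 821, 1007 and 1547 CPM in LM9 and at 331.6, 337 and 337 CPM in the KO-labelled LM9 libraries. The parental libraries were widely spread, yet the lowest of them, at 673 CPM, was above the highest labelled knockout. Hspg2 had the smallest fall of the 9 genes, -1.21 (SE 0.20, adjusted p = 0.000129) in LM1 and -1.70 (SE 0.20, adjusted p = 7.54e-06) in LM9. It was second only to Lamc1 among the members per length in the KO-labelled libraries, with 24.6 and 23.4 RPKM against 30.6 and 30.3 RPKM.

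Nidogen 1 joins the laminin and collagen IV networks at the γ1 site printed above. Nid1 (ENSMUSG00000005397, chr13:13437551-13512269, plus strand) was barely expressed. It had 43, 48 and 41 counts in LM1 and 45, 45 and 55 in LM9, against 19, 17 and 19 in the KO-labelled LM1 libraries and 15, 21 and 16 in the KO-labelled LM9 libraries. These counts lie above the floor of 3, and the groups did not overlap. Nid1 changed by -1.63 (SE 0.19, adjusted p = 9.94e-06) in LM1 and -2.02 (SE 0.19, adjusted p = 1.51e-06) in LM9. Per length Nid1 stood at 0.215 RPKM in LM1 beside 156 RPKM of Lamc1, its docking partner, and at 0.0684 beside 30.6 RPKM in the KO-labelled LM1 libraries. Its exons overlap those of the antisense gene Gm48682 over 143 bp (2.06%), and Nid2 was not analysed here.

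For each of the 9 genes and in each line the exact permutation test of 3 libraries against 3 gave p = 0.1 (two-sided), the smallest it can give. The share of all genes that separate as fully was not counted, and 81.2% and 82.3% of all genes were called in LM1 and LM9. Without LM9 replicate 1 the limma-voom log2 fold changes in LM9 were -5.73 for Lama5, -5.62 for Lamb1, -2.22 for Lamb2, -2.54 for Lamc1, -2.15 for Nid1, -4.65 for Agrn and -1.90 for Hspg2, each in the same direction as with it. The luminal markers named above, Cdh1 included, were near 0 in the same libraries in which 8 members fell, and 6 fibroblast or mesenchyme markers summed to 293 to 310.6 CPM in LM1 and 174 to 288 CPM in LM9 but to 1347 to 1381 and 1289 to 1346 CPM in the KO-labelled LM1 and LM9 libraries. Of these 6, 5 rose in each line, with Col1a1 going from 6.10 to 958 CPM in LM1, whereas Dcn fell from 90.7 to 11.5 CPM in LM1 and was not called in LM9 (adjusted p = 0.0576, or 0.00114 without replicate 1, with a log2 fold change of -0.32). Basal markers (3 measured) summed to 15.8 to 19.1 CPM in LM1 and 0.443 to 18.0 CPM in LM9, against 7.40 to 7.63 and 6.78 to 7.57 CPM. Under these sums Krt14 and Krt17 rose in each line (Krt14 from 0.0584 to 6.79 CPM in LM1), while Trp63 fell from 17.1 to 0.302 CPM in LM1 and was not called in LM9, where replicate 1 held 530 counts and the other 2 libraries 1 and 7. The 2 leukocyte markers measured summed to 450 to 467 and 466 to 554 CPM in LM1 and LM9, against 110 to 116 and 107 to 117 CPM in the KO-labelled libraries. They went opposite ways, Cd68 falling from 459 to 101 CPM in LM1 and Csf1r rising from 0 to 12.4 CPM. At or under 3 counts in all parental libraries were Krt17, Col1a2, Lum and Csf1r, and at or under 3 in all KO-labelled LM1 and LM9 libraries was Cdh1. The part of these marker genes in the changes of the members was not tested.

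**Figure D4:**
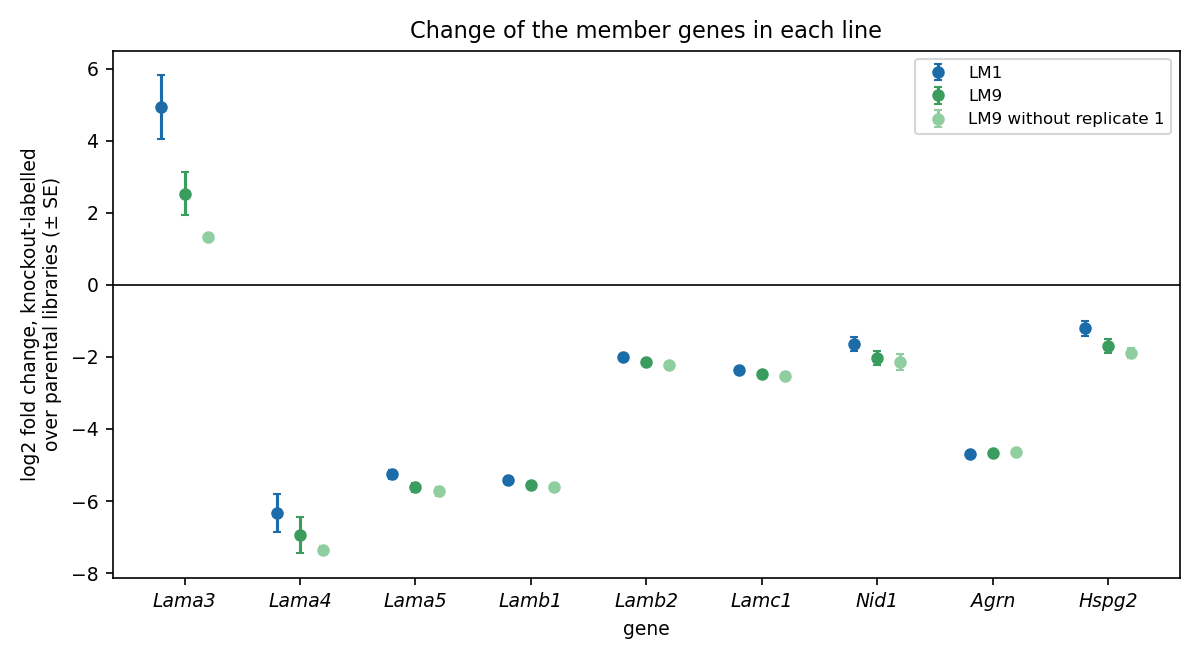
Log2 fold change (± SE from limma-voom) of each member between the KO-labelled libraries and the parental ones in LM1, in LM9 and in LM9 without replicate 1. Every point lies below 0 except for Lama3, whose rise is 4.93 in LM1, 2.53 in LM9 and 1.31 in LM9 without replicate 1.

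The parental lines were compared with each other for their laminin makeup. None of the 9 members differed between LM1 and LM9 at an adjusted p under 0.05 in limma-voom, where 0.0055% of all genes were called. At an unadjusted p under 0.05 there were 2 of the 9, beside 47.7% of all genes. DESeq2 called 2 of the 9 and 33.1% of all genes, and the edgeR quasi-likelihood test 0 of the 9 and 0.0055% of all. The largest differences were those of Lama3 (log2 fold change of LM1 over LM9 -2.38, SE 0.98, adjusted p = 0.0816) and Lama4 (-0.83, SE 0.26, adjusted p = 0.0543). Without LM9 replicate 1, 7 of the 9 members were called, beside 65.7% of all genes. Lama3 then had a log2 fold change of -3.60 (SE 0.13, adjusted p = 7.03e-13) and Lama4 one of -1.26 (SE 0.04, adjusted p = 3.85e-14), while Lama5, Lamb1, Lamb2, Lamc1 and Hspg2 had values from -0.62 to -0.18, all lower in LM1. Nid1 (-0.41, adjusted p = 0.0550) and Agrn (0.05, adjusted p = 0.280) were not called. LM9 replicates 2 and 3 held 17.9 CPM of Lama3 on average and 326 CPM of Lama4, against 1.65 and 135 CPM in replicate 1. Lamb3 followed the same split, with 566 CPM in replicates 2 and 3 and 260 CPM in replicate 1.

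The change between parental libraries and the KO-labelled ones was then compared between the lines. In limma-voom with all 12 libraries none of the 9 members differed in this respect (0% of all genes called). At an unadjusted p under 0.05 there was 1 member, beside 24.7% of all genes, while DESeq2 called 1 member and 0.386% of all genes and the edgeR test 0 members and 0.0055% of all. For Lama3 the difference was 2.40 (SE 1.07, adjusted p = 0.202). Without LM9 replicate 1, 6 of the 9 members were called, beside 57.2% of all genes. The rise of Lama3 was then larger in LM1 by 3.62 (adjusted p = 3.48e-12), and the falls of Lama4, Lama5, Lamb1, Lamb2 and Hspg2 were smaller in LM1 by 0.21 to 1.03. In that same setting all 9 members were called in LM9, where 88.9% of all genes were.

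None of the 9 members was called between the KO-labelled LM1 and LM9 libraries in limma-voom (0% of all genes). At an unadjusted p under 0.05 there were 0 members and 0.979% of all genes, and DESeq2 and the edgeR test called 0 members and 0% of all genes. Differences ran from -0.23 for Lama4 to 0.12 for Nid1 on the log2 scale. The 95% intervals ran from -0.19 to 0.16 for Lamb1, from -0.16 to 0.19 for Lamc1 and from -0.12 to 0.16 for Agrn, and from -0.36 to 0.50 for Hspg2, whose KO-labelled LM1 libraries (348 to 356 CPM) lay above the KO-labelled LM9 ones (331.6 to 337 CPM). For Lama4 the interval ran from -1.71 to 1.25 in the fit that holds LM9 replicate 1 (SE 0.67). Without that library the SE was 0.15 at the same difference of -0.23 (adjusted p = 0.999), and the KO-labelled LM1 libraries, at 1.64 to 1.75 CPM, lay below the KO-labelled LM9 ones, at 1.92 to 2.07 CPM.

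Collagen IV is the other network of the basement membrane, to which laminin is tied by nidogen. Of 10 basement membrane collagen genes, 4 rose, 5 fell and 1 was not called in LM1, and 4 rose and 6 fell in LM9 (median log2 fold change -2.13 and -2.61, beside 0.08 and 0.13 over all genes). Of all genes tested, 81.2% were called in LM1 and 82.3% in LM9. Col4a1, whose chain with that of Col4a2 forms the common collagen IV, stood at 889 ± 39.05 CPM in LM1 and at 862 ± 42.4 CPM in LM9, whereas no KO-labelled library had more than 6 counts of it (log2 fold change -13.29 and -13.07, adjusted p = 3.14e-11 and 2.92e-11). Col4a5 went the other way, from 0.235 ± 0.0353 to 109 ± 3.29 CPM in LM1 and from 0.805 ± 0.534 to 110.5 ± 2.73 CPM in LM9 (8.76 and 7.37, adjusted p = 2.56e-09 and 1.85e-09, or 6.71 in LM9 without replicate 1). Its partners in the collagen of kidney and lung, Col4a3 and Col4a4, had 0 counts in all 6 parental libraries and rose to 0.336 ± 0.0455 and 2.30 ± 0.250 CPM in the KO-labelled LM1 libraries. Col18a1, a collagen that carries heparan sulfate, fell from 898 ± 66.2 to 20.5 ± 0.515 CPM in LM1.

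Laminin receptors were also measured, of which 3 of 10 rose, 6 fell and 1 was not called in each line (median log2 fold change -1.36 and -1.43). The shares of all genes called were 81.2% in LM1 and 82.3% in LM9. Itgb1, the β chain shared by most laminin-binding integrins, rose from 417 ± 14.7 to 2452 ± 58.4 CPM in LM1 and from 442 ± 24.1 to 2522 ± 28.7 CPM in LM9 (2.56 and 2.52, adjusted p = 1.17e-11 and 1.31e-11). Its α partners differed. Itga6 rose by 0.49 and 0.65 and Itga7 by 1.79 and 1.93, whereas Itga3 fell from 1097 ± 42.95 to 29.995 ± 1.199 CPM in LM1, with log2 fold changes of -5.19 in LM1 and -5.35 in LM9. Bcam, a receptor for the α5 chain, fell most, from 95.8 ± 6.63 to 0.146 ± 0.0650 CPM in LM1 and from 115 ± 11.1 to 0.168 ± 0.0588 CPM in LM9 (-9.32 and -9.36, adjusted p = 4.31e-10 and 3.17e-10). Dag1, which encodes dystroglycan, changed by -1.05 in LM1 and -0.50 in LM9, or -0.25 in LM9 without replicate 1.

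Agrin signals to muscle through LRP4 and the kinase MuSK, with DOK7 and rapsyn inside the cell. All 3 of these genes that were measured, Lrp4, Dok7 and Rapsn, rose in both lines, while Agrn itself fell. Of all genes tested, 43.1% were called higher in LM1 and 44.3% in LM9. Lrp4 had 2 counts in all of LM1 and 0 in LM9, and stood at 43.1 ± 0.437 and 42.3 ± 0.672 CPM in the KO-labelled LM1 and LM9 libraries. The ratio in LM1 was 1909 (95% exact counting interval 528 to 15768), and in LM9 Lrp4 was at least 350-fold higher than the highest floor of 3 counts per library. Rapsn rose from 2.25 ± 0.167 to 33.8 ± 1.09 CPM in LM1 and from 2.39 ± 0.522 to 32.8 ± 1.198 CPM in LM9. Musk was not analysed here.

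**Figure D5:**
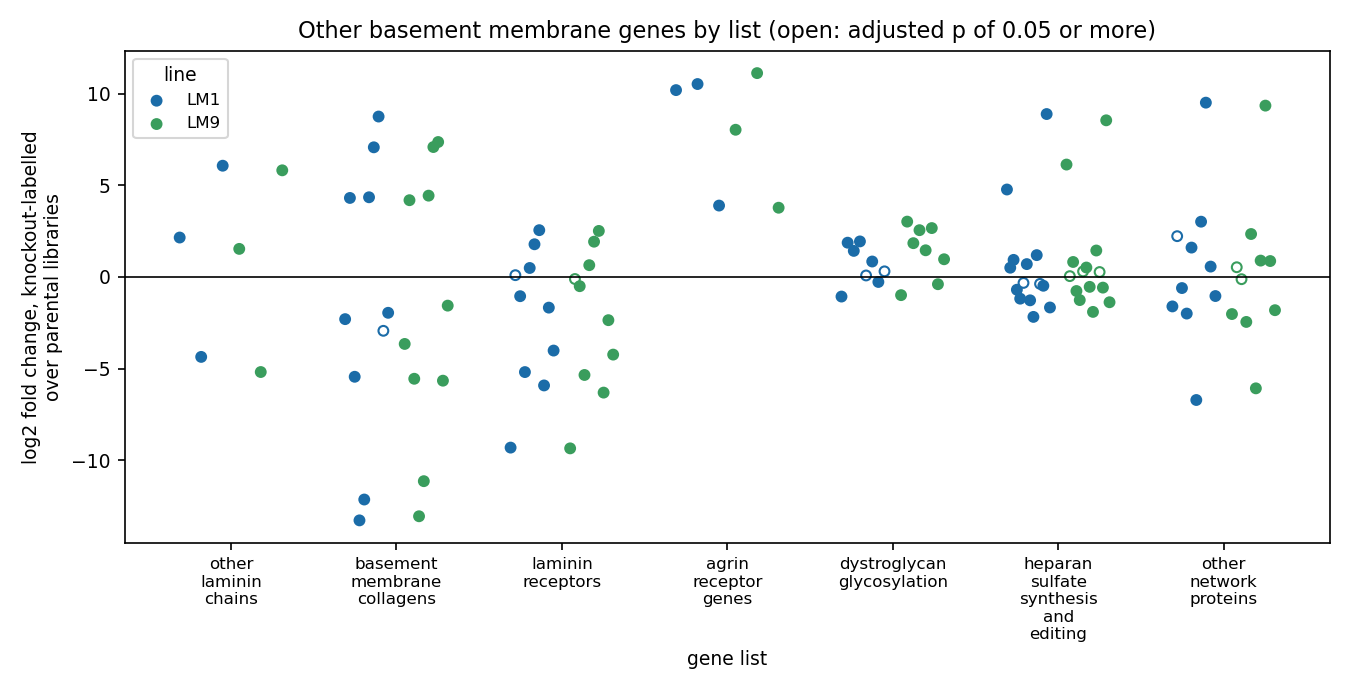
Log2 fold change between the KO-labelled libraries and the parental ones for the measured genes of 7 lists of basement membrane genes, with 1 point per gene and line, filled where the limma-voom adjusted p was under 0.05. The agrin receptor genes all lie above 0 in both lines, and the collagens spread from -13.29 (Col4a1) to 8.76 (Col4a5) in LM1, where fitted values of genes with almost no counts in one group depend on the offset of 0.5. Of all genes tested, 43.1% and 44.3% were called higher in LM1 and LM9.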

How the data were processed

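RNA was extracted from tumourspheres with a column kit, and stranded poly-A libraries were sequenced as single-end reads. The authors aligned the reads with STAR to mm10 and counted those with 5' ends over the union of each gene's exons with qCount of QuasR; the deposited values are these raw counts, 1 file per library and not normalised. Versions and the annotation release are not given in the sources used here. In every gene the third-highest library held at least 8 counts, so low genes were probably removed before deposition. Names, exon lengths and coordinates (1-based) came from GENCODE M21 on GRCm38, the assembly of mm10, and 18268 identifiers matched. Groups came from the sample titles.

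filterByExpr of edgeR (count minimum 10, total minimum 15) kept 18176 genes. limma-voom (R 4.3.3, limma 3.58.1, edgeR 4.0.16, offset 0.5, TMM factors) was fitted to all 12 libraries with 1 mean per group, tests were two-sided, and p-values were adjusted by Benjamini-Hochberg over all genes in each comparison. A gene was called at an adjusted p under 0.05. TMM factors ran from 0.822 to 0.952 in parental libraries and from 1.10 to 1.11 in the KO-labelled ones. Values are mean ± SD over 3 libraries, and floors and exact counting intervals allow for counting error alone, reads without molecular identifiers being no count of independent molecules. The code was tested on simulated data.

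Some items of the lists, and the trimers that need them, are not reported here. The members, the lists and the rules were chosen with earlier results of these data known. Named genes were all 9 members, other laminin chains, and in each list the largest rise and fall in LM1 among called genes with a mean of at least 1 CPM; Col4a3, Col4a4, Col18a1, Itga3, Itga6, Itga7, Itgb4, Col17a1, Dag1, Dok7, Rapsn, the marker genes named singly and those further genes named in the closing section were added after their values were seen. Alternatives were the edgeR quasi-likelihood test, DESeq2 1.42.0, median-ratio factors, library totals, no filter, the replicate block, only genes averaging 5 CPM or more, a fit of the compared groups alone and leaving out each library; for trimers, 5 CPM, more than 3 counts, and library totals. The longest coding transcript as gene length was added after seeing the data. Equal replicate numbers did not mark libraries that deviated together (correlations of deviations from -0.0587 to 0.025).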

Additional observations from a re-analysis of the deposited data

How the results depend on the processing

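Every change of the 9 members between parental libraries and the KO-labelled ones kept its direction and its call in all alternatives run (179 values per line), although the size of the Lama3 rise in LM9 ran from 1.31 to 3.14. For Nid1 the fit of genes at a mean of at least 5 CPM gave no value. With the replicate block, 9 members were called in each line, along with 52 genes of the other lists in LM1 and 52 in LM9 (80.3% and 81.6% of all genes), and no call of a member changed. Leaving out 1 library gave 9 members in each line each time, and 50 to 57 and 50 to 55 list genes, beside 77.6% to 88.6% and 78.8% to 88.9% of all genes.

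Members called between LM1 and LM9, 0 in the reported fit, were 2 with DESeq2, 1 with library totals and 1 at a mean of at least 5 CPM (33.1%, 28.8% and 39.4% of all genes), and 0 to 7 when 1 library was left out, with 7 reached without LM9 replicate 1 (65.7% of all genes, against at most 0.011% in the other fits). For the difference of the change between the lines, the count was 1 with DESeq2 (0.386% of all genes) and 0 to 6 when 1 library was left out, with 6 without LM9 replicate 1 (57.2%, against 0% in the other fits). The cause was not tested. At 5 CPM the trimers with all chains detected were 4 in the KO-labelled LM1 libraries and 4 in the KO-labelled LM9 libraries, because fewer chains reach this level. Leaving out LM9 replicate 1 left 6 in LM9.

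Signs that turned belonged to uncalled values near 0. Between LM1 and LM9, Lamc1 came to 0.0165 with library totals, and Agrn ranged from -0.018153 to 0.0756 with 1 library left out. Between the KO-labelled groups, Lamb2 came to 0.00137 at a mean of at least 5 CPM, and with 1 library left out Lamb1 ranged from -0.0341 to 0.0132, Lamb2 from -0.0288 to 0.0242 and Lamc1 from -0.00112 to 0.0329. For the difference between the lines, Agrn came to 0.0125 with DESeq2 and 0.0112 with median-ratio factors, and ranged from -0.0554 to 0.0386 with 1 library left out.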

Other observations

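Dystroglycan binds laminin only through a glycan that a chain of enzymes builds, and the genes of that chain were among the lists examined. Of 8, 4 rose, 2 fell and 2 were not called in LM1, and 6 rose and 2 fell in LM9 (median log2 fold change 0.58 and 1.65). Over all genes tested, 81.2% and 82.3% were called in LM1 and LM9. Pomgnt1, which had the largest rise of the list in LM1, went from 23.9 ± 1.05 to 91.8 ± 1.69 CPM in LM1 and from 16.5 ± 7.76 to 92.1 ± 2.66 CPM in LM9. B4gat1, which primes the laminin-binding repeat, fell from 57.9 ± 2.40 to 27.6 ± 1.31 CPM in LM1 and from 54.8 ± 6.10 to 27.5 ± 1.49 CPM in LM9.

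Heparan sulfate is the sugar chain on agrin and perlecan. Of 14 measured genes for its synthesis and editing, 6 rose, 6 fell and 2 were not called in LM1, and 5 rose, 6 fell and 3 were not called in LM9. As above, 81.2% and 82.3% of all genes were called. Xylt1, an enzyme that starts the chain, had 1 count in all of LM1 and 2 in all of LM9, against 1355 and 1432 counts in the KO-labelled LM1 and LM9 libraries, a ratio of 1035 and 484 (95% exact counting intervals 185 to 40916 and 134 to 4000.4), while Xylt2, which carries out the same step, fell from 38.8 ± 4.18 to 12.2 ± 0.780 CPM in LM1. Hs6st1, which adds sulfate, fell from 82.3 ± 2.36 to 18.2 ± 0.770 CPM in LM1 and from 67.7 ± 16.4 to 17.8 ± 1.05 CPM in LM9. Hs6st2 and Sulf1 were not analysed here.

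Among 10 further proteins of the matrix network, 4 rose, 5 fell and 1 was not called in LM1, and 4 rose, 4 fell and 2 were not called in LM9. The shares over all genes were again 81.2% and 82.3%. Smoc2, a calcium-binding matrix protein, had 0 counts in all parental libraries and was at least 115-fold and 103-fold higher in the KO-labelled LM1 and LM9 libraries than the highest floor of 3 counts per library. Pxdn, the peroxidase that crosslinks collagen IV, fell from 86.7 ± 3.88 to 0.822 ± 0.157 CPM in LM1, where Col4a1 was also near 0 in the KO-labelled libraries.

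The genes most like 3 of the members over the 12 libraries, by Pearson's r of log2 CPM among 10280 genes, were Lama5, Nfe2l1 and Plekhg3 for Lamc1 (0.9993, 0.9992 and 0.9991). For Lama3 they were Gm12715, Riok3 and Cdc6 (0.9993, 0.9988 and 0.9987), and for Lama4 they were Tmed10-ps, Mmp9 and Uaca (0.9997, 0.9995 and 0.9995). The 12 points share their split between parental and KO-labelled libraries, and Tmed10-ps is a pseudogene whose reads may belong to its parent gene.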
